A study of Arabidopsis thaliana with 6 samples.

Results

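A pollen tube of Arabidopsis thaliana is a single growing vegetative cell that carries a pair of sperm cells in its cytoplasm, so RNA extracted from whole tubes holds the transcripts of both cell types. The male germline genes MGH3 (AT1G19890), DAZ1 (AT2G17180) and DAZ3 (AT4G35700) are described here in tubes of the agp6 agp11 double mutant and of wild type. The members were listed by locus, and each locus has 1 named probe set among the 22746 in the table, so all 3 genes were measured. The pollen actin genes ACT4 (AT5G59370) and ACT12 (AT3G46520), which are expressed in the vegetative cell, served as the comparison within each array.

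Pollen tubes were grown in vitro for 8 h in the dark, and 3 independent preparations of each genotype were each hybridised to 1 Affymetrix ATH1 array. The agp6 agp11 plants are a homozygous double null line in which Ds transposons disrupt AGP6 and AGP11, genes for arabinogalactan proteins of pollen, and the line came from a cross of single insertion lines. Wild type plants were of the ecotype Nossen, the ecotype that the labels give for the mutant too. Each preparation pooled the tubes of many flowers after ungerminated grains had been washed away, so no value belongs to a single plant or tube. The values are normalized intensities (signals) on a linear scale.

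In Arabidopsis the male germline is set up by DUO1, a MYB transcription factor that acts after the asymmetric division of the microspore and activates many of the genes by which sperm cells are recognised. MGH3, which encodes a histone H3 variant of sperm chromatin, and the DAZ genes, which encode zinc finger proteins, are among its targets. DAZ1 acts with its close relative DAZ2 in the division of the germ cell that gives the sperm cells, where they work as repressors through EAR motifs. Other targets act later, such as HAP2 (also called GCS1), whose protein on the sperm surface is required for gamete fusion.

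The disrupted genes were checked first, and both had far lower signals in agp6 agp11. AGP6 (AT5G14380) had signals of 31.1, 29.1 and 15.1 on the agp6 agp11 arrays, against 13313, 13677 and 9597 on the wild type arrays. AGP11 (AT3G01700) had 34.7, 40.4 and 32.5 in agp6 agp11 and 10016, 9448 and 5604 in wild type. The median signal was 23.3 to 24.5 over the 6 arrays, and 27.6% to 29.9% of probe sets on an array exceeded a signal of 40, used here as a working minimum for detection.

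DAZ3, MGH3 and DAZ1 all had higher mean log2 signals in agp6 agp11 tubes than in wild type tubes, corresponding to 1.94-fold, 1.60-fold and 1.88-fold. None of the 3 passed the test across all probe sets without the pairing of arrays, and all 3 passed as higher once arrays with the same replicate number were paired. The labels do not give this pairing, which was adopted from correlations in these same data. MGH3 passed in no other fit that was tried. Of all probe sets, 2.01% passed as higher without the pairing and 5.03% with it. DAZ3 and DAZ1 could be named only from the study's own table, whose rows are ordered by difference between the genotypes. Whether they passed is therefore not independent of how they were named. The actins were also somewhat higher in agp6 agp11, by 1.37-fold for ACT4 and 1.27-fold for ACT12, and neither passed in either fit. Set against the actins of the same array, the genes kept a higher mean in agp6 agp11, but the differences were smaller. The arrays of the genotypes stayed apart on that scale for DAZ3 alone of the 3. The share of all probe sets that stay apart on that scale was not computed, so this separation cannot be called particular to DAZ3. On the signals as deposited, every mutant array lay above every wild type array for 11.3% of all probe sets.

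DAZ3, a zinc finger gene activated by DUO1, gave one of the brightest signals in these tubes. Its signals were 14517, 11155 and 14563 in agp6 agp11 (replicates 1, 2 and 3), against 7230.3, 5641 and 7953 in wild type. Every mutant array lay above every wild type array, and replicate 2 was the lowest in both genotypes. The means were 13412 ± 1954 in agp6 agp11 and 6941 ± 1182 in wild type (SD, n = 3 arrays each). On each array DAZ3 ranked between 11 and 30 among the 22746 probe sets in agp6 agp11, and between 43 and 90 in wild type. The log2 change was 0.95 with a standard error of 0.24 and a 95% interval of 0.42 to 1.48. Its adjusted p was 0.0637 in limma, just outside the threshold of 0.05, and 0.00224 with the replicate block. Of the 36 other probe sets at least as bright on average as that of DAZ3, none had a log2 change as high, and their median change was 0.07. In bulk RNA, more sperm cells per preparation and more RNA per sperm cell cannot be told apart.

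MGH3, the sperm histone gene, was bright in both genotypes. Its signals were 6405, 4147 and 5067 in agp6 agp11 and 3385, 2919.6 and 3326 in wild type. The lowest mutant array again lay above the highest wild type array, and replicate 2 was again the lowest in both genotypes. The means were 5206 ± 1136 in agp6 agp11 and 3210.2 ± 253 in wild type (SD, n = 3 each), so the mutant arrays were spread more widely, with a coefficient of variation of 21.8% against 7.89% in wild type. The log2 change was 0.68 (standard error 0.25, 95% interval 0.12 to 1.23), with an adjusted p of 0.241 in limma and 0.0244 with the replicate block. Of the 120 other probe sets at least as bright as that of MGH3, 4 had a log2 change as high, with a median change of 0.09 over the 120.

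DAZ1, the zinc finger gene of germ cell division, was far dimmer, with signals of 173, 119 and 71.2 in agp6 agp11 and 58.3, 82.1 and 46.1 in wild type. All 6 signals exceeded 40, but the genotypes overlapped, since agp6 agp11 replicate 3 lay below wild type replicate 2. Replicate 3 was the lowest in both genotypes, unlike for DAZ3 and MGH3. The means were 121 ± 51.1 in agp6 agp11 and 62.2 ± 18.3 in wild type (SD, n = 3 each), and these signals stood between the percentiles 81.7 and 89.2 of all probe sets on the mutant arrays and 75.5 and 83.5 on the wild type arrays. The log2 change was 0.91 (standard error 0.35, 95% interval 0.14 to 1.69), with an adjusted p of 0.257 in limma and 0.0320 with the replicate block. Signals of different probe sets do not rank the amounts of their transcripts, so the dim signal of DAZ1 and the bright one of DAZ3 say nothing of which gene has more RNA.

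**Figure D1:**
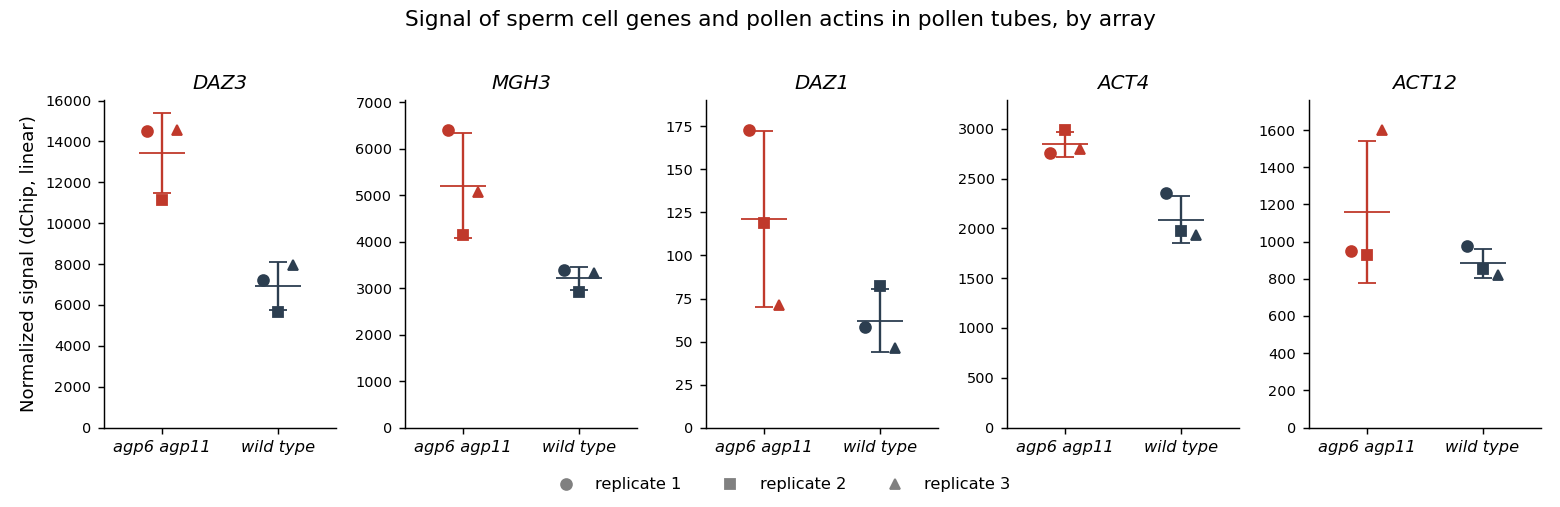
Normalized signal (linear, each axis from 0) of DAZ3, MGH3, DAZ1, ACT4 and ACT12 on the agp6 agp11 arrays (red, left in each panel) and wild type arrays (dark, right), with a marker for each replicate number. Horizontal lines and bars are means ± SD (n = 3 arrays); the genotypes are apart for DAZ3, MGH3 and ACT4 and overlap for DAZ1 and ACT12.

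The counts of the 3 genes were read against all probe sets. Without the replicate block 837 of 22746 probe sets passed in either direction (3.68%) and 457 as higher in agp6 agp11 (2.01%), and the 3 genes were not among them. With the replicate block 1897 passed (8.34%), of which 1145 were higher (5.03% of all probe sets), and all 3 genes were among these. Every mutant array lay above every wild type array for 2 of the 3 genes, a separation found for 11.3% of all probe sets and for 17.5% of the 4858 probe sets with a signal above 40 on all 6 arrays. Among those 4858, whose median log2 change was 0.11, a change at least as high as that of DAZ3 was found for 5.45%, as that of DAZ1 for 5.95% and as that of MGH3 for 11.6%. In the plot of level against change, DAZ3 and MGH3 lie at the bright end, where changes of this size were few. DAZ3 and DAZ1 could be named only from rows ordered by difference between the genotypes. The shares of all probe sets are therefore no fair background for DAZ3 and DAZ1, and the counts show no enrichment.

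The names of DAZ3 and DAZ1 bear on how these p-values can be read. The probe set of MGH3 is named by the annotation table of the array platform. Those of DAZ3, DAZ1 and ACT4 are named only by the 1999 leading rows of the study's own table, in which the probe sets that differ most between the genotypes come first, and 1487 of those rows are higher in agp6 agp11. The changes of DAZ3, DAZ1 and ACT4 are therefore not independent of how their probe sets came to be named. The name of MGH3 does not depend on its change.

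Arrays of the same replicate number differed by similar amounts for DAZ3. Its mutant signal was 2.01, 1.98 and 1.83 times that of the wild type array with the same number, for replicates 1, 2 and 3. For MGH3 the ratios were 1.89, 1.42 and 1.52, and for DAZ1 they were 2.97, 1.45 and 1.55, so replicate 1 gave the highest ratio for each of the 3 genes. All 9 ratios were above 1, which for DAZ3 and MGH3 follows under any pairing from the lack of overlap between genotypes. Pairing narrowed the 95% interval of the log2 change to 0.65 to 1.26 for DAZ3, 0.33 to 1.02 for MGH3 and 0.42 to 1.40 for DAZ1. The change of DAZ1 leaned on replicate 1 of the mutant: without it the log2 change was 0.61, and without agp6 agp11 replicate 3 it was 1.25. DAZ3 passed without the block when wild type replicate 3 was left out (adjusted p = 0.0389 in limma), and its adjusted p ranged up to 0.274 when other arrays were omitted.

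**Figure D2:**
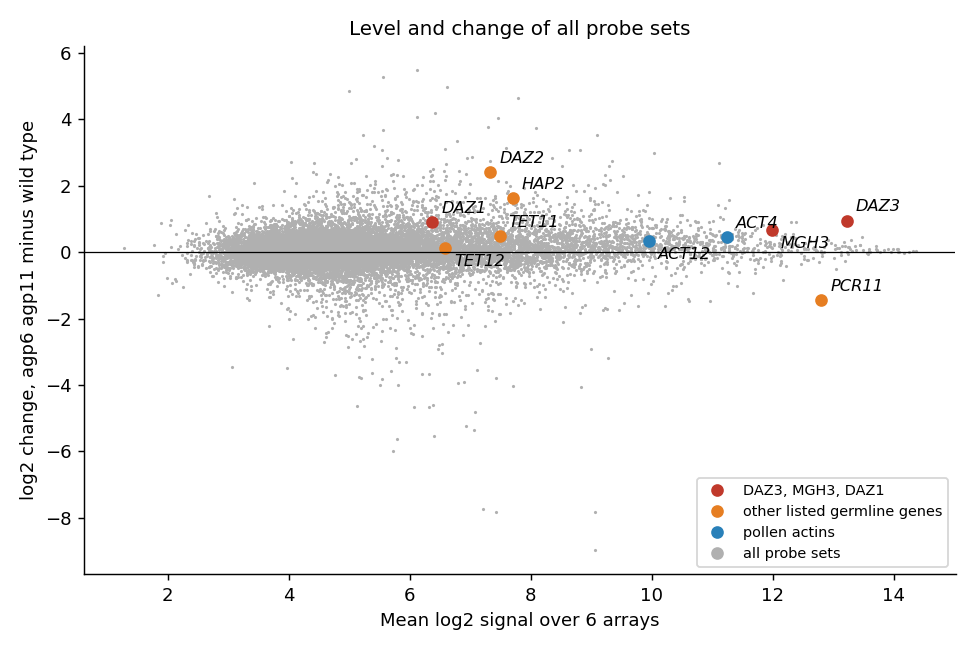
The log2 change (agp6 agp11 minus wild type, vertical) against the mean log2 signal over 6 arrays (horizontal) for all 22746 probe sets (grey), with DAZ3, MGH3 and DAZ1 in red, the other named germline genes in orange and the actins in blue. DAZ3 (0.95) and MGH3 (0.68) lie above most probe sets of like brightness, while PCR11 (-1.45) lies below.

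The 3 genes were compared with the actins to ask whether they differed between genotypes more than these transcripts of the vegetative cell. The name of ACT4 comes only from the rows ordered by difference, so ACT4 is not a neutral reference. The 5 vegetative genes named by the platform table had a median log2 change of 0.12. ACT4 had signals of 2754, 2989 and 2796 in agp6 agp11 and 2356, 1978 and 1929 in wild type, without overlap. Its log2 change was 0.45 (standard error 0.23, adjusted p = 0.442 in limma, and 0.125 with the replicate block). ACT12 had 949, 930.4 and 1601 in agp6 agp11 and 974, 852 and 823 in wild type. Its genotypes overlapped, and its log2 change of 0.35 (standard error 0.29, adjusted p = 0.671 in limma, and 0.406 with the replicate block) was 0.09 without agp6 agp11 replicate 3.

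Relative to the mean log2 signal of ACT4 and ACT12 on the same array, DAZ3 stood at 3.17, 2.74 and 2.78 in agp6 agp11, against 2.25, 2.12 and 2.66 in wild type. The difference of 0.55 (95% interval -0.03 to 1.14, from the spread between arrays) corresponds to 1.47-fold and had an exact permutation p of 0.1, two-sided, the smallest that 3 arrays against 3 can give. With either actin alone the exact permutation p of DAZ3 was 0.2. MGH3 stood at 1.99, 1.31 and 1.26 in agp6 agp11 and at 1.16, 1.17 and 1.40 in wild type on the same scale. Its difference was 0.28 (95% interval -0.41 to 0.96, exact permutation p = 0.3), and without agp6 agp11 replicate 1 it was 0.04, so this array carried most of it. DAZ1 stood at -3.22, -3.81 and -4.89 in agp6 agp11 and at -4.70, -3.98 and -4.77 in wild type. Its difference was 0.51 (95% interval -1.02 to 2.04, exact permutation p = 0.5), and it was 0.13 without agp6 agp11 replicate 1. When all arrays were scaled to the actins, none of the 3 genes passed in limma (adjusted p = 0.212 for DAZ3, 0.545 for MGH3 and 0.359 for DAZ1). This scaling moved the median log2 change of all probe sets to -0.37, against 0.03 as deposited. The interval of each of the 3 differences from the actins includes 0.

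**Figure D3:**
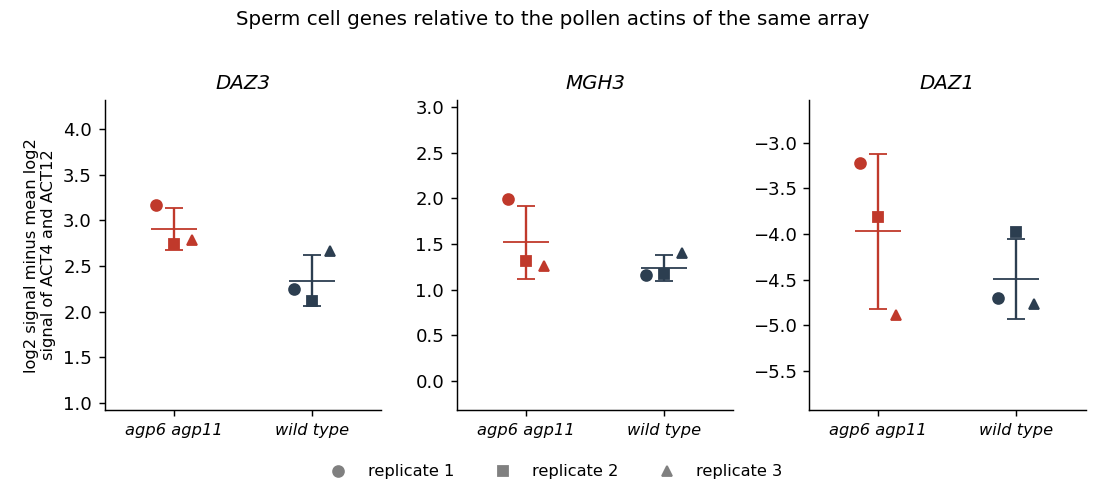
The log2 signal of DAZ3, MGH3 and DAZ1 minus the mean log2 signal of ACT4 and ACT12 on the same array, for agp6 agp11 (red, left in each panel) and wild type (dark, right); markers are arrays and bars are means ± SD (n = 3). The vertical axes span equal ranges, and of these 3 genes the genotypes are apart for DAZ3 only. The share of all probe sets that are apart on this scale was not computed.

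The changes of the 3 genes were also set against one another, in a design where 3 arrays against 3 cannot give an exact p below 0.1. On the log2 scale the change of DAZ3 exceeded that of MGH3 by 0.28 (95% interval -0.10 to 0.65, exact permutation p = 0.2, adjusted over the 3 pairs of genes 0.6). In arrays of the same number the excess of DAZ3 over MGH3 was 0.09, 0.48 and 0.27, positive in all 3, with an exact sign-flip permutation p of 0.25, the smallest that 3 pairs of arrays can give. The change of DAZ3 differed from that of DAZ1 by 0.04 (95% interval -1.52 to 1.60, exact permutation p = 1). The change of MGH3 minus that of DAZ1 was -0.23 (95% interval -1.48 to 1.01, exact permutation p = 0.7). Within same-numbered arrays it was -0.65, -0.03 and -0.02 (exact sign-flip permutation p = 0.25), so nearly all of that difference came from replicate 1. No difference between the genes passed a test, and the paired test was chosen after the data were seen.

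Other genes of the male germline did not all go the way of DAZ3, MGH3 and DAZ1. Of 20 listed genes 8 could be named, the 3 included, and without the replicate block 2 rose, 1 fell and 5 did not pass, against 3.68% of all probe sets that passed. With the replicate block 5 rose and 1 fell, against 8.34% of all probe sets. The median log2 change was 0.79 over the 8 genes and 0.03 over all probe sets. Only MGH3, TET11 and TET12 are named by the platform table. The other 5 are named only by the ordered rows, so the counts and the median favour genes that differ. Over the 3 platform genes the median log2 change was 0.50, none passed without the block and MGH3 alone passed with it.

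DAZ2 (AT4G35280), the partner of DAZ1 in germ cell division, rose to 559, 340.1 and 269 in agp6 agp11, against 65, 93 and 56.5 in wild type (5.31-fold, adjusted p = 0.00297 in limma). Relative to the actins its difference was 2.01 on the log2 scale, with an adjusted p of 0.00157 when all arrays were scaled to them. HAP2 (AT4G11720), the gamete fusion gene, rose to 507, 266 and 375 in agp6 agp11, against 138, 96.8 and 124 in wild type (3.13-fold, adjusted p = 0.0135 in limma). HAP2 no longer passed without wild type replicate 1 (adjusted p = 0.0590), wild type replicate 2 (0.0634) or agp6 agp11 replicate 1 (0.0667). Neither DAZ2 nor HAP2 had any overlap between genotypes. PCR11 (AT1G68610), a further DUO1 target from a family named for cadmium resistance, fell to 5010.1, 3597 and 4506 in agp6 agp11, against 11662, 10528 and 13397 in wild type (adjusted p = 0.00808 in limma). Its log2 change of -1.45 thus ran opposite to those of the DAZ genes, MGH3 and HAP2.

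TET11 (AT1G18520) and TET12 (AT5G23030), which encode tetraspanins of the sperm plasma membrane, showed smaller differences. TET11 had 246, 149 and 265 in agp6 agp11 and 150.3, 125 and 183 in wild type, which overlap (log2 change 0.50, adjusted p = 0.516 in limma). TET12 had 129, 89.2 and 87.3 in agp6 agp11 and 79.4, 97.5 and 101 in wild type (log2 change 0.12, adjusted p = 0.886 in limma). All 8 named germline genes had signals above 40 on all 6 arrays.

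**Figure D4:**
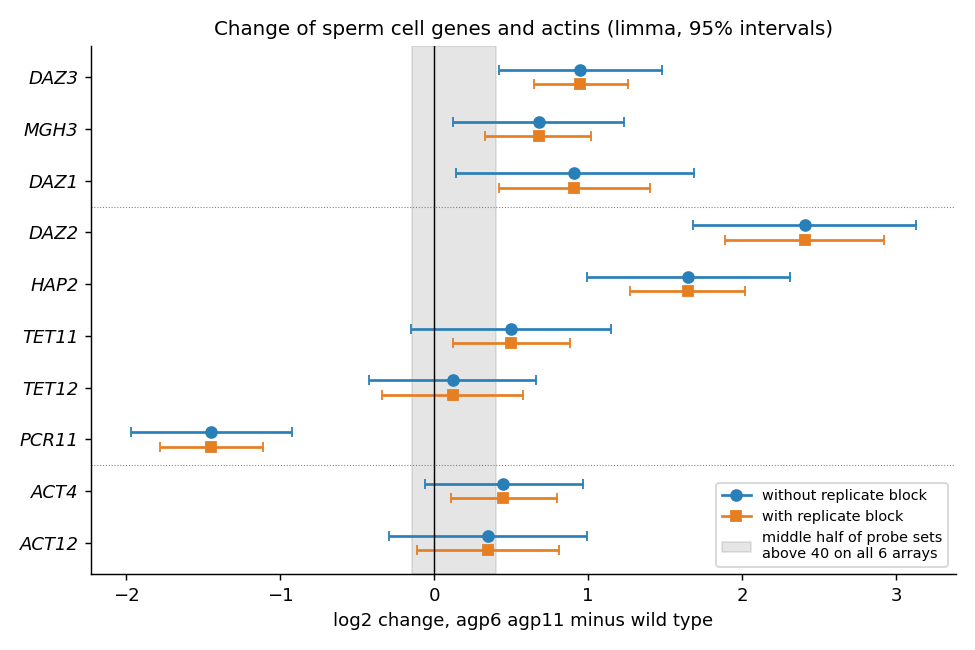
The log2 change (agp6 agp11 minus wild type) of 8 named germline genes and of ACT4 and ACT12, with 95% intervals from limma without (circles) and with (squares) the replicate block; the grey band is the interquartile range of the changes of the 4858 probe sets above 40 on all arrays (-0.14 to 0.40). DAZ2 and HAP2 lie right of DAZ3, MGH3 and DAZ1, and PCR11 alone lies left of 0.

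Of 24 listed genes of the vegetative cell 7 could be named, with a median log2 change of 0.29, and none passed without the replicate block. Over the 5 of them named by the platform table the median was 0.12 and none passed in either fit, while ACT4 and MYB97 are named only by the ordered rows. Of all probe sets 3.68% passed without the block and 8.34% with it. For lists this short, the counts in this paragraph are therefore no result about a cell type or tissue. With the block 1 of the 7 rose, MYB97 (AT4G26930), a transcription factor of pollen tubes that is named after its values were seen, which had signals of 1329, 1345 and 995 in agp6 agp11 and 897, 861 and 415 in wild type (adjusted p = 0.312 in limma, and 0.0217 with the block). ANX2 (AT5G28680), a receptor kinase that keeps the growing tube intact, had 3471, 3587 and 2666 in agp6 agp11 and 3134, 3329 and 1724 in wild type, which overlap. ACT11 (AT3G12110), a further pollen actin, had means of 2039 ± 468 in agp6 agp11 and 1883 ± 463 in wild type (SD, n = 3 each), and the receptor kinase gene ANX1 (AT3G04690) had 1071 ± 85.7 in agp6 agp11 and 1017 ± 166 in wild type. VEX1 (AT5G62850), a gene of the vegetative cell, was the only one of the 7 with a lower mean in agp6 agp11, at 94.9, 82 and 91 against 93.6, 102 and 128 in wild type, which overlap (log2 change -0.26, adjusted p = 0.678 in limma). Against VEX1, ANX1, ANX2 and MYB97 in place of the actins, the differences were 0.72 for DAZ3, 0.44 for MGH3 and 0.68 for DAZ1 on the log2 scale (exact permutation p = 0.2 for each). Of 11 listed genes of leaf and tapetum 3 could be named, and none passed. The tapetum genes A9 (AT5G07230) and AMS (AT2G16910) did not exceed 40 on any array. RCA (AT2G39730), the activase of Rubisco, had 26, 47.9 and 34.1 in agp6 agp11 and 35.5, 39.1 and 23.4 in wild type, so it exceeded 40 on 1 array of 6.

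The named loci whose signals over the 6 arrays were most like those of each gene were sought among 3024 loci with signals above 40 on every array. For DAZ3 these were ALN (AT4G04955), an allantoinase gene, PAP1 (AT2G01180), NOF1 (AT1G17690) and AT5G60250, with Pearson's r of 0.993 to 0.998. ALN had signals of 487, 304 and 449 in agp6 agp11 and 110.1, 70.5 and 135 in wild type, with replicate 2 the lowest in both genotypes as for DAZ3. For MGH3 they were TRM82 (AT1G03110), SYN3 (AT3G59550), AT2G22720 and SR34 (AT1G02840), with r of 0.997 to 0.999. SYN3, a gene for a cohesin subunit, had 809, 394 and 579.7 in agp6 agp11 and 279.6, 229.9 and 276 in wild type. For DAZ1 they were BAM4 (AT5G55700), AT4G35940, AT1G75050 and ELF6 (AT5G04240), with r of 0.987 to 0.990. BAM4 had 158, 135 and 95.3 in agp6 agp11 and 82.3, 100.3 and 64.2 in wild type, with replicate 3 the lowest in both genotypes as for DAZ1. No locus stood in more than 1 of these lists of 4. All of the listed loci are in the rows ordered by difference between the genotypes. PAP1, NOF1, SYN3, SR34, BAM4 and ELF6 are named only by those rows, so the candidates favour loci that differ. With 6 arrays and so many loci, correlations of this height describe the profiles and carry no test.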

How the data were processed

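The authors used dChip, with invariant-set normalization of the 6 arrays, and deposited model-based intensity values from perfect match probes, with 1 value per probe set and array. Probe-level data were not analysed here. Probe sets were named from the platform's annotation (13513 had a single gene) and from the 1999 rows used here of the study's own table, whose comparison columns (fold changes) were left aside. Where a locus has several probe sets, the brightest was taken. Members and gene lists were chosen with earlier results of these data known. The named genes are the members, AGP6, AGP11, the actins, every named germline gene, the 4 brightest of the vegetative and sporophyte lists, and the 4 most alike loci per member. VEX1 and MYB97 are named outside this rule, and both belong to the reference used in place of the actins.

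Signals below 1 were set to 1, taken as log2 values and fitted with limma 3.58.1 in R 4.3.3 (eBayes with intensity trend), with Benjamini-Hochberg adjustment across the 22746 probe sets (threshold 0.05). Exact permutation tests and figures used Python 3.11.15 with scipy 1.17.1. The labels number the replicates without saying what a number shares. Deviations from the genotype mean correlated at 0.239, 0.347 and 0.379 between arrays of the same number and at 0.0711 or less otherwise. The correlations between arrays of the same number all exceeded 0.1, so the numbers were treated as pairs in the fit with the replicate block. The labels do not give this pairing, so it rests on these same data. The number of arrays limits the precision. The build of the probe sets is not given in the sources used here, so no coordinates are printed.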

Additional observations from a re-analysis of the deposited data

How the results depend on the processing

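The log2 changes of DAZ3, MGH3 and DAZ1 stayed positive under all 14 alternatives to the fit, and so did their differences from the actins under all 12 alternatives. For many of these the sign could not change. The replicate block, the fit without the intensity trend and the signal filter return the same log2 change. For DAZ3 and MGH3, whose genotypes do not overlap, leaving out 1 array cannot reverse the log2 change. The counts are therefore no measure of robustness. DAZ3 passed the test with an offset of 32 before the log2 (change 0.95, adjusted p = 0.0218), with probe sets of a mean signal above 40 only (0.95, 0.0205), without the intensity trend (0.95, 0.0384), with array weights (0.92, 0.0128) and with the replicate block (0.95, 0.00224), all in limma. It did not pass after quantile normalization, median centring or scaling to the actins. When 1 array was left out its change was 0.81 to 1.08. MGH3 passed only with the replicate block (0.68, 0.0244). DAZ1 passed with array weights (1.17, 0.0144) and with the replicate block (0.91, 0.0320). The number of probe sets that passed was 837, and it was 2019 with array weights, 1897 with the replicate block, 1340 after scaling to the actins and 372 to 871 when 1 array was left out. The actins themselves were not tested under the scaling to the actins, which sets their mean change to 0. In the comparison with the actins, pairs of arrays cannot give an exact p below 0.25.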
